A study of Mus musculus with 6 samples.

Results

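The genes described here are the detoxification and retinoid enzyme families of the small intestinal epithelium: cytochromes P450 (Cyp), UDP-glucuronosyltransferases (Ugt), glutathione S-transferases (Gst), sulfotransferases (Sult), aldehyde and alcohol dehydrogenases (Aldh, Adh), aldo-keto reductases (Akr), carboxylesterases (Ces), flavin monooxygenases (Fmo), retinol and short-chain dehydrogenases (Rdh, Dhrs), N-acetyltransferases (Nat), glutathione peroxidases (Gpx) and thioredoxin system genes (Txn). They were chosen by the start of the gene symbol, and Aldh1l2 was left out. The rule found 41 of the 1420 genes in the deposited table. That table holds only genes that the authors' own DESeq2 test had called between the same libraries, so each of the 41 genes had to differ between the groups, and their calls are a description and not a separate finding. The annotation (GENCODE M21) holds 301 protein-coding genes that follow the rule, and the others were not analysed here. No Fmo gene was in the table.

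The libraries come from small intestinal organoids, epithelial structures grown in gel from crypts, of Smarcad1 knockout (KO, n = 3) and wild type (WT, n = 3) mice, all of strain C57BL/6. Smarcad1 is a chromatin remodelling ATPase. The genotype label of the KO samples names a Cre driven by the Villin promoter, which acts in intestinal epithelium, whereas the culture protocol and the study's methods name ZP3-cre, which acts in the oocyte and so deletes the gene in all cells, with control littermates. The groups are therefore called KO and WT only. Cultures of both groups were kept in medium with EGF, Noggin, R-spondin-1 and the antioxidant N-acetyl-cystein, without microbiota or immune cells, and about 600 organoids per condition were collected after 5 days. The study's methods describe its mice as male; age and the number of mice behind each library are not given in the sources used here, so the spread between replicates may be technical. Coordinates are those of the deposited table, in build GRCm38. Levels are RPM (reads per 1000000 reads of the library), and a log2 change is the KO mean minus the WT mean of log2(RPM + 0.1).

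Depth, inferred from the smallest step of the values, ran from 1.24e+07 to 1.57e+07 reads per library. Read numbers given for single genes are inferred from the RPM in the same way. Smarcad1 itself was measured at 105, 94.7 and 96.3 RPM in WT and 21.7, 21.3 and 24.0 RPM in KO, so that every KO library was below every WT library, as the labels have it. Markers of several epithelial cell types differed between the groups. Over all listed genes 52.6% were higher and 47.4% lower in KO, and of those with a mean of at least 100 RPM 370 of 555 were lower. Between 10 and 100 RPM, the range of several markers that were higher, 59.3% of 617 listed genes were higher. Under 10 RPM, the range of the Paneth marker Lyz2, 79.0% of 248 were. Of 22 enterocyte markers 11 were in the table, 10 of them lower in KO, and their summed level ran from 22488 to 25582 RPM in WT and from 16295 to 17700 RPM in KO. All 10 listed Paneth markers of 15 were higher, with sums from 9278 to 10683 RPM in WT and from 19742 to 28964 RPM in KO. Higher in KO were also all 4 listed goblet markers of 13 (1817 to 2065 RPM against 2830 to 5156 RPM), all 4 enteroendocrine markers of 16 (218 to 264 against 362 to 517 RPM) and all 3 stem cell markers of 12 (314 to 360.2 against 436 to 514 RPM). Of 12 tuft cell markers 1 was listed, Dclk1, with means of 22.6 RPM in WT and 11.7 RPM in KO, and of 15 markers of non-epithelial cells 1, Itgam, with means of 9.52 RPM in WT and 4.40 RPM in KO. The part of these shifts in the enzyme results was not tested, and in bulk RNA fewer cells of a type and less RNA per cell cannot be told apart.

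Enterocytes meet drugs, dietary toxins and bile acids first, and clear them in steps. Cytochromes P450, aldehyde dehydrogenases and carboxylesterases oxidise or hydrolyse a compound, and transferases then attach glucuronic acid, sulfate or glutathione, which makes it soluble enough for export. Glutathione peroxidases and the thioredoxin system remove peroxides and keep protein thiols reduced, and many of these genes carry an antioxidant response element, the binding site of the transcription factor Nrf2, in their promoters. The same enzyme superfamilies handle vitamin A: carotenoids are cleaved to retinal, retinal is reduced to retinol for storage and transport, and retinol is oxidised through retinal to retinoic acid, the ligand of nuclear receptors that guide epithelial differentiation. Several genes chosen by name work elsewhere in metabolism, and this is said where they appear.

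Among the 41 genes, 15 were higher and 26 lower in KO. The share that was higher was 36.6%, beside 52.6% over all 1420 listed genes, and the share that was lower is read beside 47.4%. All 41 genes had a limma adjusted p under 0.05, and 99.9% of all listed genes did. The KO values did not overlap the WT values in any of the 41 genes, beside 98.5% of all listed genes. The exact permutation test of each gene was two-sided and gave p = 0.1, below which 3 against 3 libraries cannot go. The median log2 change was -0.35 over the 41 genes and 0.38 over all listed genes. Changes were mostly small: 5 genes rose by at least 1 on the log2 scale, where 19.0% of all listed genes did, and 1 gene fell by at least 1, beside 8.10%.

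The direction went with the level. Genes that rose had a median level of 19.3 RPM and genes that fell a median of 333 RPM. Of the 25 genes with a mean of at least 100 RPM, 5 were higher, beside 185 of 555 listed genes of that level (33.3%). Of 11 genes between 10 and 100 RPM 5 were higher (45.5%), beside 59.3% of 617 listed genes. All 5 genes under 10 RPM were higher, beside 79.0% of 248 listed genes. The table holds called genes only, and over all listed genes too the median log2 change was 1.31 under 10 RPM and -0.38 at 100 RPM or more. Summed over all 41 genes, the level was 16240, 16574 and 16451 RPM in WT and 13423, 13988 and 13870 RPM in KO, which is 1.62% to 1.66% of a WT library and 1.34% to 1.40% of a KO library. The 26 genes that fell lost more RPM than the 15 that rose gained: their sum went from 13835 ± 123 to 9659 ± 529 RPM, and that of the others from 2587 ± 205 to 4101 ± 311 RPM (SD, n = 3 each).

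**Figure D1:**
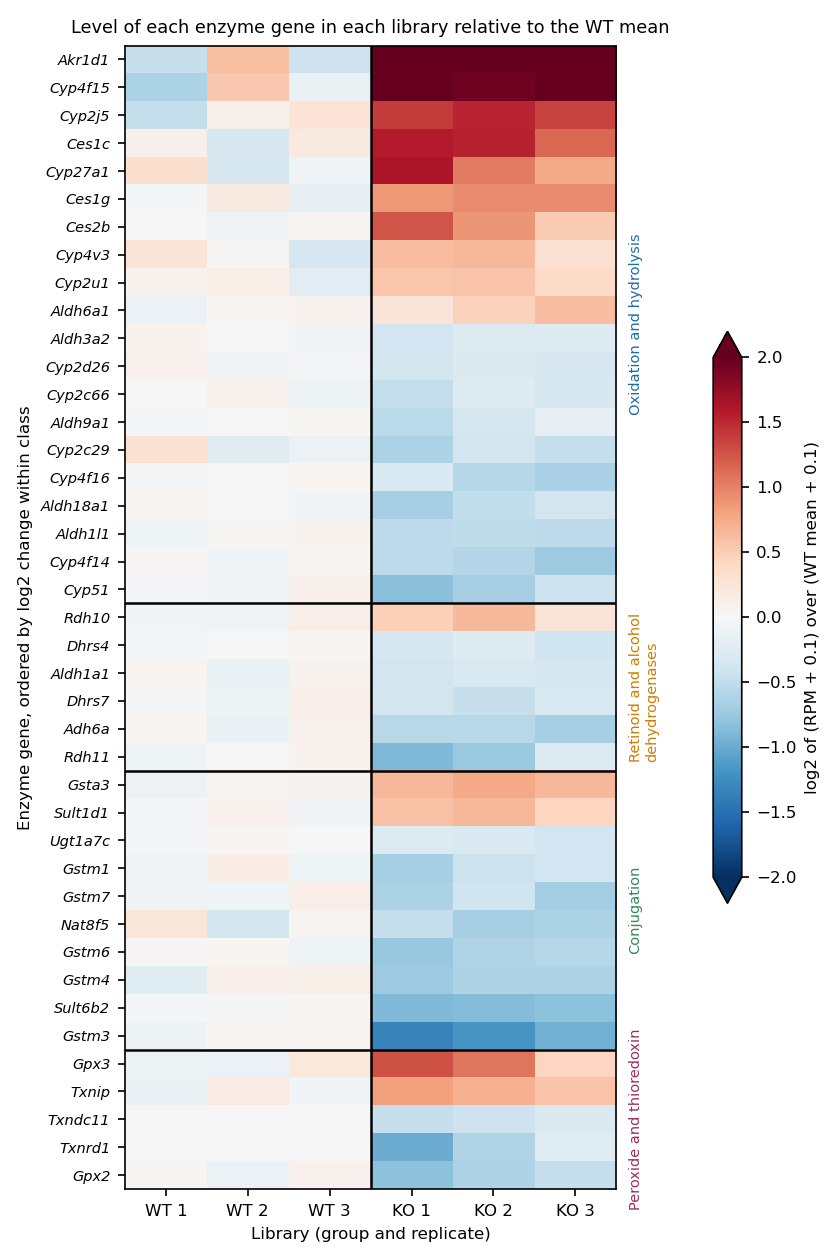
Level of the 41 enzyme genes (rows, in 4 classes, ordered by log2 change) in the 6 libraries (columns), as log2 of RPM + 0.1 over the WT mean + 0.1; colours are capped at 2 in either direction. The 3 KO columns are red for 15 genes and blue for 26, and Akr1d1 and Cyp4f15 at the top are the darkest.

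**Figure D2:**
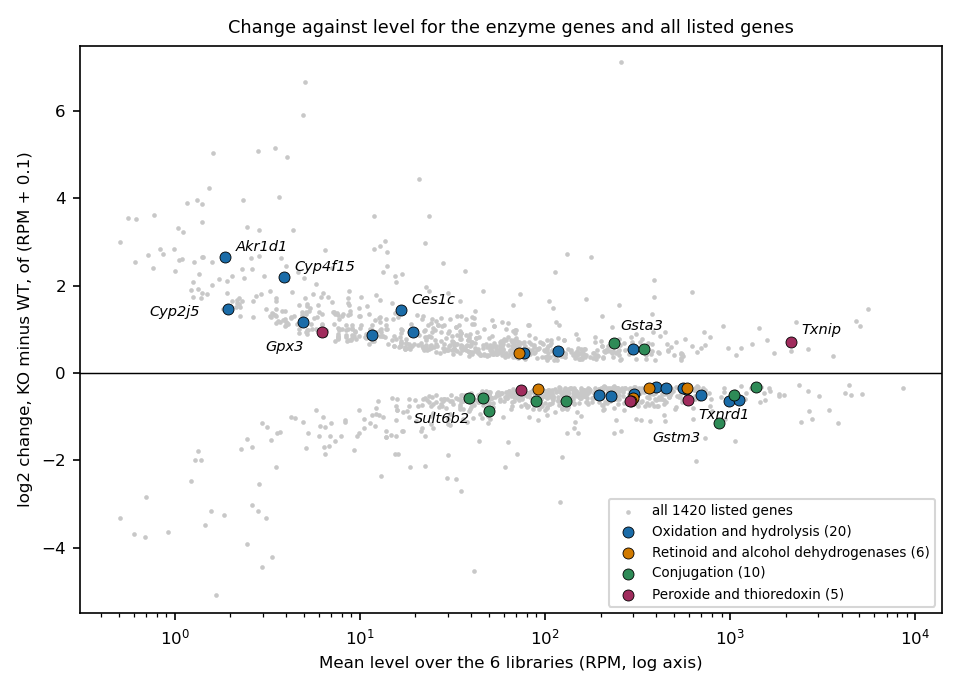
Log2 change in KO against WT (vertical axis) by mean RPM over the 6 libraries (horizontal, log axis) for all 1420 listed genes (grey) and the 41 enzyme genes (coloured by class). The enzyme genes under 10 RPM lie above 0, and of those at 100 RPM or more 20 of 25 lie below 0. The table holds only genes already called, and no gene lies near 0.

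The oxidising and hydrolysing enzymes, the largest class, held 20 genes, of which 10 rose and 10 fell, beside 52.6% and 47.4% of all listed genes. The median log2 change in the class was 1.05 for the rises and -0.49 for the falls. The median level was 14.1 RPM for the genes that rose and 503 RPM for those that fell. Among all listed genes 33.3% were higher at 100 RPM or more, 59.3% between 10 and 100 RPM and 79.0% under 10 RPM. Akr1d1, the steroid 5-beta-reductase of bile acid synthesis, lies on chromosome 6 from 37530173 to 37568815. It was measured at 0.311, 0.766 and 0.326 RPM in WT, which is 4, 12 and 5 reads, and at 3.70, 3.36 and 2.80 RPM in KO, which is 46, 49 and 40 reads. The mean was 7.03 times as high in KO, with a log2 change of 2.66 ± 0.30 (SE) and a limma adjusted p of 0.00108; with a pseudocount of 1 the log2 change was 1.56. Cyp2j5, an arachidonic acid epoxygenase, was at 0.699, 1.09 and 1.24 RPM in WT (9, 17 and 19 reads) and 2.82, 3.09 and 2.73 RPM in KO (35, 45 and 39 reads). This gave a log2 change of 1.46 ± 0.20 (SE) and a limma adjusted p of 0.00191, and a log2 change of 0.96 with a pseudocount of 1. Cyp27a1, the mitochondrial sterol 27-hydroxylase of bile acid synthesis, went from a mean of 2.97 ± 0.698 RPM to one of 6.90 ± 2.24 RPM (SD, n = 3 each), which on the log2 scale was 1.17 (limma adjusted p = 0.00734). All 3 stayed under 10 RPM in each KO library.

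All 3 carboxylesterases in the table rose, beside 59.3% of the 617 listed genes of their level, 10 to 100 RPM. These enzymes hydrolyse ester drugs and lipids, and their genes stand in tandem arrays on chromosome 8, with 2 of 8 annotated Ces1 genes and 1 of 7 Ces2 genes in the table. Ces1c was measured at 9.56, 7.09 and 10.1 RPM in WT and 27.0, 26.0 and 19.8 RPM in KO, with a log2 change of 1.44 ± 0.19 (SE) and a limma adjusted p of 0.00168. Each KO library was far above the highest WT library. Ces1g, 171.1 kb away, went from 13.3 ± 1.57 to 25.3 ± 0.791 RPM and Ces2b from 8.08 ± 0.346 to 15.3 ± 4.01 RPM (SD, n = 3 each). Their log2 changes were 0.93 (limma adjusted p = 0.00146) and 0.88 (limma adjusted p = 0.00683). Ces2b spread more in KO, where the libraries were at 19.5, 15.0 and 11.5 RPM. Summed, the 3 genes were at 30.54, 29.83 and 30.48 RPM in WT and at 70.92, 66.71 and 57.03 RPM in KO, 214% of the WT mean. Reads of close copies are uncertain. The study's methods kept uniquely mapped reads, so reads of stretches shared between separate genes can be lost from a value. Of the 50-base words in annotated Ces1c transcripts 13.0% also occur in transcripts of other genes, Ces1b first, and 9.66% in Ces2b, Ces2c first.

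The Cyp4f genes, omega-hydroxylases of fatty acids and leukotrienes, did not move together. Cyp4f16, Cyp4f15 and Cyp4f14 are 3 of 8 annotated Cyp4f genes between 32452723 and 32947402 on chromosome 17. Cyp4f14, on chromosome 17 from 32905071 to 32917342, was at 1373, 1299 and 1386 RPM in WT and fell to 939, 897 and 816 RPM in KO, 65.4% of the WT mean, with a log2 change of -0.62 ± 0.10 (SE) and a limma adjusted p of 0.00312. It had the highest mean RPM of this class. Cyp4f16 was at 225, 229 and 235 RPM in WT and 186, 154 and 146 RPM in KO, with a log2 change of -0.51 ± 0.12 (SE) and a limma adjusted p of 0.00842; it shares 17.4% of its 50-base words with other genes, mainly Cyp4f37. Cyp4f15, between them at 133.8 kb and 201.7 kb, went the other way. It was at 0.855, 2.04 and 1.24 RPM in WT (11, 32 and 19 reads) and 6.12, 5.63 and 7.36 RPM in KO (76, 82 and 105 reads), 4.62 times the WT mean, with a log2 change of 2.20 ± 0.29 (SE) and a limma adjusted p of 0.00173. Per kb of transcript, the KO level of Cyp4f15 was 2.94 RPM against 398 RPM for Cyp4f14, so the rise leaves it a minor transcript of the group. The summed level of the 3 genes fell from 1584 ± 47.8 to 1053 ± 80.6 RPM (SD, n = 3 each).

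The promoters of these neighbours are shown because the genes moved in opposite directions. The windows run from 250 bases before to 50 after a RefSeq start site (GRCm38.p6), are written in the direction of the gene, and were picked after the values were seen; capitals mark the core of an antioxidant response element, TGACNNNGC.
Cyp4f14, chr17:32917038-32917337, minus strand: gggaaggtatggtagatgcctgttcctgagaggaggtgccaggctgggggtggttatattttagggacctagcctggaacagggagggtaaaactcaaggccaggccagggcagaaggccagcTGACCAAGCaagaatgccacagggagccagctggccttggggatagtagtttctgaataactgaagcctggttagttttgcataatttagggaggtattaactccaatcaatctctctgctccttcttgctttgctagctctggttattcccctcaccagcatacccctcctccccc
Cyp4f15, chr17:32685409-32685708, plus strand: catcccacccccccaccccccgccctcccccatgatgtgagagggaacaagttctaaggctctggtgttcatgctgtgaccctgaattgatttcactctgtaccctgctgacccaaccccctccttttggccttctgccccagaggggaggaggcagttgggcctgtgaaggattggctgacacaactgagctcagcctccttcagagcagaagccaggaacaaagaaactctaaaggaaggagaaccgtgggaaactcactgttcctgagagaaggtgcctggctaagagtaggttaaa
This core lies 127 bases before the start site in 1 of the 4 listed windows of Cyp4f14 and is not in the window of Cyp4f15. That Cyp4f14 window lies wholly inside the gene's coordinates, which end at 32917342. The Cyp4f14 windows of start sites at or near that end do not hold the core.

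**Figure D3:**
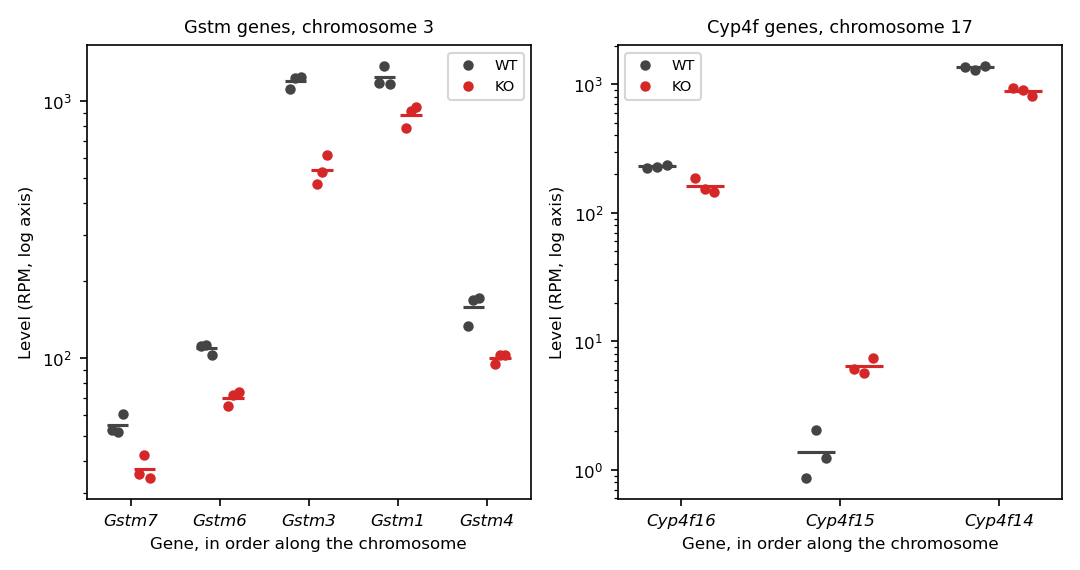
RPM (log axis) of the listed Gstm genes on chromosome 3 (left) and Cyp4f genes on chromosome 17 (right) in order along the chromosome; points are libraries, bars are means of 3. All 5 Gstm genes, Cyp4f16 and Cyp4f14 were lower in each KO library, and Cyp4f15 was higher.

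Among the other P450 enzymes, Cyp2d26, Cyp2c66 and Cyp2c29 of the drug-metabolising Cyp2d and Cyp2c subfamilies fell. Cyp2d26 went from a mean of 503 ± 26.6 RPM to one of 399.6 ± 9.68 RPM (SD, n = 3 each), which on the log2 scale was -0.33 (limma adjusted p = 0.0147). Cyp2c66 and Cyp2c29, 2 of the 15 annotated Cyp2c genes of chromosome 19 and neighbours at 82.3 kb, changed by -0.35 (limma adjusted p = 0.0187) and -0.47 (limma adjusted p = 0.0291). Cyp2c29 was at 436, 297 and 326 RPM in WT and 228, 275 and 253 RPM in KO, so that KO replicate 2 and WT replicate 2 stood close together, and its exons overlap the pseudogene Cyp2c53-ps on the same strand. Cyp2c66 shares 19.5% of its 50-base words with Cyp2c65. Cyp4v3, a fatty acid hydroxylase of the endoplasmic reticulum, and Cyp2u1, a hydroxylase of long-chain fatty acids, rose from 243 to 353 RPM and from 97.1 to 138 RPM. Their log2 changes were 0.55 (limma adjusted p = 0.0228) and 0.51 (limma adjusted p = 0.0108). Cyp4v3 overlaps Gm45753 on its own strand and Cyp2u1 overlaps 4930534D22Rik on the other, and the sources used here do not say if reads were assigned by strand.

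Cyp51 is the lanosterol demethylase of cholesterol synthesis and not a drug enzyme. It was at 1161, 1138 and 1291 RPM in WT and 672, 754 and 899 RPM in KO, 64.8% of the WT mean, with a log2 change of -0.64 ± 0.14 (SE) and a limma adjusted p of 0.00640. The highest KO library stayed below the lowest WT library. Its exons overlap Akap9 on the other strand.

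Of the 5 aldehyde dehydrogenases outside the retinoid class 4 fell and 1 rose. The share lower over all listed genes was 47.4%. At 100 RPM or more, the level of the 4 that fell, 370 of 555 were lower, and between 10 and 100 RPM 251 of 617. Aldh1l1, the cytosolic 10-formyltetrahydrofolate dehydrogenase, was at 251, 271 and 279 RPM in WT and 186, 187 and 185 RPM in KO, with a log2 change of -0.52 ± 0.09 (SE) and a limma adjusted p of 0.00407. The KO libraries hardly differed from each other, with a coefficient of variation of 0.466%. Its exons overlap Gm45901 on its own strand, and 10.0% of its 50-base words are shared. Aldh18a1, which makes the precursor of proline, fell from a mean of 816 ± 25.4 RPM to one of 577 ± 58.6 RPM (SD, n = 3 each), which on the log2 scale was -0.51 (limma adjusted p = 0.00687). Aldh9a1, an enzyme of carnitine synthesis, and Aldh3a2, the fatty aldehyde dehydrogenase, changed by -0.36 (limma adjusted p = 0.0214) and -0.31 (limma adjusted p = 0.0190). Aldh6a1, which works in valine breakdown, rose from a mean of 65.5 ± 4.51 RPM to one of 89.6 ± 11.0 RPM (SD, n = 3 each), which on the log2 scale was 0.45 (limma adjusted p = 0.0143); it overlaps Bbof1 on the other strand and shares 16.1% of its 50-base words.

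The calls of 7 genes of this class were lost in at least 1 fit with a library left out. Aldh9a1 lost its call without WT replicate 1, 2 or 3 or without KO replicate 2, with a limma adjusted p from 0.0548 to 0.0594 and log2 changes from -0.37 to -0.35. Cyp4v3 lost it without WT replicate 2 or 3 or KO replicate 1 or 2 (limma adjusted p from 0.0516 to 0.0738, log2 changes from 0.39 to 0.57), and Cyp2c29 without WT replicate 1 or 3 or KO replicate 1 or 3 (limma adjusted p from 0.0515 to 0.0797, log2 changes from -0.52 to -0.31). Without WT replicate 1 the call also ended for Aldh6a1 (0.39, limma adjusted p = 0.0528), Cyp2d26 (-0.29, limma adjusted p = 0.0625), Aldh3a2 (-0.27, limma adjusted p = 0.0757) and Cyp2c66 (-0.35, limma adjusted p = 0.0597). That of Cyp2c66 ended without WT replicate 2 too (-0.31, limma adjusted p = 0.0604), and that of Aldh3a2 without KO replicate 2 (-0.32, limma adjusted p = 0.0546). No gene changed direction in these fits. Over all alternative settings, the lowest limma adjusted p of each of the 7 lay between 0.00312 for Aldh6a1 and 0.0116 for Cyp2c29. Since the genes were selected on the same libraries, these lowest values add no weight to the calls. With the replicate number as a block, Aldh3a2 and Cyp2c29 had a limma adjusted p of 0.0541 and 0.0635. Removal of a trend with transcript length moved the log2 changes of Aldh1l1 to -0.32, Aldh3a2 to -0.20 (limma adjusted p = 0.0571), Cyp2d26 to -0.56 and Cyp2c66 to -0.60.

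Of the 6 retinoid and alcohol dehydrogenases 5 fell and 1 rose. Over all listed genes 47.4% were lower. At 100 RPM or more 370 of 555 were, and between 10 and 100 RPM, the range of Rdh10 and Dhrs7, 251 of 617. The gene that rose was Rdh10, which oxidises retinol to retinal, on chromosome 1 from 16105774 to 16133734. It was at 58.5, 58.0 and 65.4 RPM in WT and 84.8, 95.4 and 72.6 RPM in KO, 139% of the WT mean, with a log2 change of 0.47 ± 0.13 (SE) and a limma adjusted p of 0.0143. Each KO library was above the highest WT library, the closest being KO replicate 3. Rdh11, which mainly reduces retinal to retinol, was at 333, 353 and 372 RPM in WT and 192, 211 and 292 RPM in KO, with a log2 change of -0.63 ± 0.17 (SE) and a limma adjusted p of 0.0129. Its KO libraries spread widely, with a coefficient of variation of 23.1% against 5.61% in WT.

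Aldh1a1, which oxidises retinal to retinoic acid, lies on chromosome 19 from 20492715 to 20643462. It was measured at 678, 600.4 and 686 RPM in WT and 508, 531 and 519.6 RPM in KO, 79.3% of the WT mean, with a log2 change of -0.33 ± 0.10 (SE) and a limma adjusted p of 0.0172. Adh6a, an alcohol dehydrogenase, was at 369, 328 and 383 RPM in WT and 245, 246 and 228 RPM in KO, with a log2 change of -0.58 ± 0.10 (SE) and a limma adjusted p of 0.00405; it is the only one of 6 annotated Adh genes of its cluster on chromosome 3 in the table. The KO libraries of both genes were close to each other and all below WT. Dhrs4, a reductase of carbonyl compounds including retinal, was at 394, 403 and 414 RPM in WT and 321, 339 and 305 RPM in KO, with a log2 change of -0.33 ± 0.09 (SE) and a limma adjusted p of 0.0150. Dhrs7, a short-chain dehydrogenase, was at 102, 96.4 and 113 RPM in WT and 80.9, 75.3 and 84.0 RPM in KO, with a log2 change of -0.37 ± 0.11 (SE) and a limma adjusted p of 0.0150. Per kb of transcript, Dhrs4 (290.0 RPM) and Aldh1a1 (278 RPM) had the highest WT levels of the 6 and Rdh10 (16.9 RPM) the lowest. The summed level of the class was 1936 ± 97.3 RPM in WT and 1477 ± 39.6 RPM in KO (SD, n = 3 each).

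Leaving out 1 library ended the call of Rdh10 without KO replicate 2 (log2 change 0.37, limma adjusted p = 0.0514). That of Dhrs7 ended without WT replicate 3 (-0.31, limma adjusted p = 0.0508) or KO replicate 2 (-0.33, limma adjusted p = 0.0585), and that of Aldh1a1 without WT replicate 1 (-0.31, limma adjusted p = 0.0652), WT replicate 3 (-0.30, limma adjusted p = 0.0569) or KO replicate 2 (-0.35, limma adjusted p = 0.0503). In the other settings the limma adjusted p went down to 0.00627 for Rdh10, 0.00307 for Dhrs7 and 0.00729 for Aldh1a1. With the length trend removed the falls of the short transcripts Dhrs7 and Dhrs4 were larger, at -0.67 and -0.63.

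Of 21 genes listed for carotenoid uptake and cleavage, carriers, esterification and receptors, 6 were in the table, and all 6 were lower in KO (median log2 change -0.71), beside 47.4% of all listed genes, 370 of 555 with a mean of at least 100 RPM and 251 of 617 between 10 and 100 RPM, the range of Bco2 and Rbp7. All 6 had a limma adjusted p under 0.05, beside 99.9% of all listed genes, which the selection of the table fixes. Bco2, the mitochondrial carotenoid cleavage enzyme, changed most. It was at 104, 112 and 117 RPM in WT and 28.8, 30.1 and 33.1 RPM in KO, 27.6% of the WT mean, with a log2 change of -1.86 ± 0.10 (SE) and a limma adjusted p of 9.24e-05. Bco1, which cleaves beta-carotene to retinal, changed by -0.60, Scarb1, a receptor that takes up carotenoids and lipids, by -0.70, and Retsat, a retinol saturase, by -0.48. The cellular retinol-binding proteins Rbp2 and Rbp7 changed by -0.75 and -0.72, with Rbp2 at 539, 456 and 549.7 RPM in WT and 349.9, 296 and 272 RPM in KO. Rbp2 is also 1 of the enterocyte markers, of which 10 of 11 listed were lower. With the length trend removed the falls of the short transcripts Rbp2 and Rbp7 were larger, at -1.24 and -1.29.

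**Figure D4:**
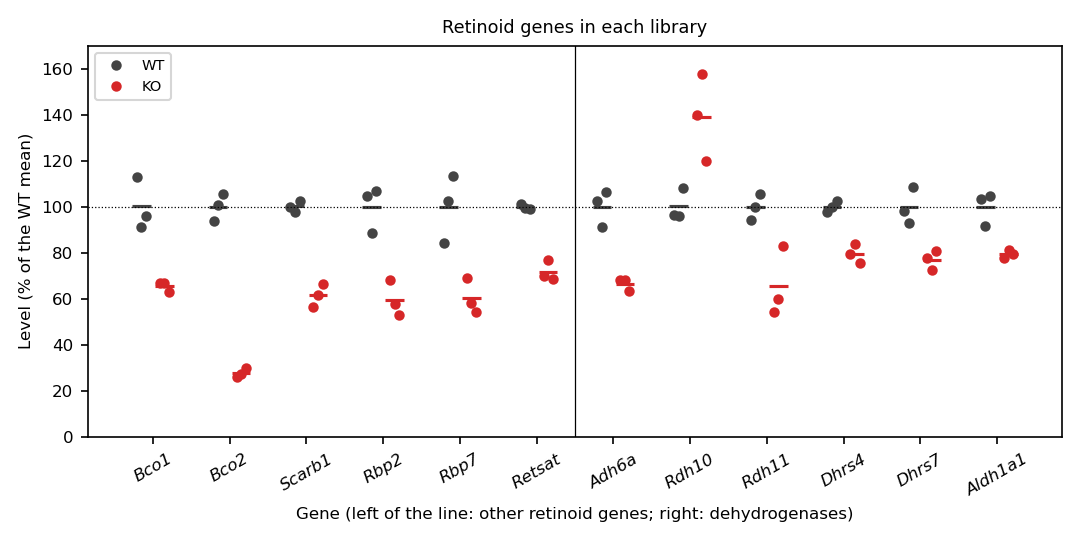
Level of retinoid genes in each library as a percentage of the WT mean (points: libraries, bars: means of 3), with other retinoid genes left of the line and dehydrogenases right of it. Bco2 is lowest in KO at 27.6%, and Rdh10 is the only gene above WT, at 139%.

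Of the 10 conjugation genes 8 fell and 2 rose, beside 47.4% lower over all listed genes, 370 of 555 at 100 RPM or more and 251 of 617 between 10 and 100 RPM. The largest fall was that of Gstm3 and the next that of Sult6b2, described below. Gstm3 belongs to the mu-class glutathione S-transferases, which attach glutathione to reactive compounds. The table holds 5 of the 7 annotated Gstm genes of the cluster on chromosome 3 between 107895821 and 108044894, and all 5 fell. Gstm3, on chromosome 3 from 107963696 to 107969283, was at 1115, 1228 and 1242 RPM in WT and 474, 528 and 617 RPM in KO. Its mean was 45.2% of WT, with a log2 change of -1.15 ± 0.13 (SE) and a limma adjusted p of 0.00103, and it was the only 1 of the 41 genes with a fall of at least 1. With the length trend removed there were 4 such genes. Gstm1 was at 1173, 1364 and 1164 RPM in WT and 781, 913 and 942 RPM in KO, 71.2% of WT, with a log2 change of -0.49 ± 0.12 (SE) and a limma adjusted p of 0.0101. Per kb of transcript Gstm1 and Gstm3 stood close in WT, at 957 and 912 RPM, and apart in KO, at 682 and 412 RPM. Gstm4 was at 133, 169 and 171 RPM in WT and 95.0, 103 and 103 RPM in KO, with a log2 change of -0.64 ± 0.13 (SE) and a limma adjusted p of 0.00545. Gstm6 was at 112, 113 and 103 RPM in WT and 65.0, 71.9 and 73.9 RPM in KO, with a log2 change of -0.64 ± 0.10 (SE) and a limma adjusted p of 0.00302. Gstm7, at the end of the row, changed by -0.57 (limma adjusted p = 0.00702). Together the 5 genes went from 2751 ± 170.1 to 1626 ± 162 RPM (SD, n = 3 each), 59.1% of the WT level. Of the 50-base words of Gstm3 28.8% and of Gstm1 18.9% occur in other transcripts, pseudogenes and each other among them, while Gstm4, which fell like Gstm6, shares 0%.

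The alpha-class enzyme Gsta3 went against the mu class. This gene, on chromosome 1 from 21240589 to 21265661, was at 166, 188 and 190.1 RPM in WT and 287, 307 and 286 RPM in KO, 162% of the WT mean, with a log2 change of 0.69 ± 0.10 (SE) and a limma adjusted p of 0.00236. All KO libraries were well above WT. Of its 50-base words 0.273% are shared with other genes. The promoters of Gsta3, of Gstm7 and of Gstm3, the gene that fell most, are printed as before, with the same core in capitals.
Gsta3, chr1:21240335-21240634, plus strand: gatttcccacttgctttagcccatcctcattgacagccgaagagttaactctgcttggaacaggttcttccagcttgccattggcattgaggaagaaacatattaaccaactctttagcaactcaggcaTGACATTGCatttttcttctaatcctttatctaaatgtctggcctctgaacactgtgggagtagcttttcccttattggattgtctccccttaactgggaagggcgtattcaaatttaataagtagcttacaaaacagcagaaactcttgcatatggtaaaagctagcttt
Gstm7, chr3:107931565-107931864, minus strand: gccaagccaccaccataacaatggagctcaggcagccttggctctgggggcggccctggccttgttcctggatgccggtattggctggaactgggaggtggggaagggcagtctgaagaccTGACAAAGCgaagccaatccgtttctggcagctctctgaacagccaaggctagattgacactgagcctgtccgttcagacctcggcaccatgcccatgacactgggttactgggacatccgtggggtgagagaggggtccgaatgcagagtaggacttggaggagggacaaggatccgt
Gstm3, chr3:107969125-107969424, minus strand: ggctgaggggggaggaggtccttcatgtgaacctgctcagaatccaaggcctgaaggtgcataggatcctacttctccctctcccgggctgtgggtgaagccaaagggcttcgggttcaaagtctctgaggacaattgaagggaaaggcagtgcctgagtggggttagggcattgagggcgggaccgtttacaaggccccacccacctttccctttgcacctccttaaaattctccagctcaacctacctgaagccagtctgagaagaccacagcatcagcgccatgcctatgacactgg
The core lies 121 bases before the start site in Gsta3, which rose, and 129 bases before it in 1 of the 2 listed windows of Gstm7, which fell. The window of Gstm3 does not hold it. The core of Gstm7 lies inside the gene's coordinates, which end at 107931817. The other Gstm7 window, 107931768-107932067, has its start site at that end and does not hold the core.

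Sulfotransferases also split. Sult1d1, which sulfates phenols and catecholamines, was at 273, 295 and 267 RPM in WT and 416, 439.8 and 374 RPM in KO, 147% of the WT mean, with a log2 change of 0.56 ± 0.11 (SE) and a limma adjusted p of 0.00479. Sult6b2 was at 62.9, 63.1 and 65.9 RPM in WT and 34.7, 35.0 and 36.1 RPM in KO, 55.1% of the WT mean, with a log2 change of -0.86 ± 0.09 (SE) and a limma adjusted p of 0.000754. Replicates of Sult6b2 lay close together in both groups, and its limma adjusted p was the lowest of the 41 genes. Papss2, which makes the sulfate donor of these enzymes, was at 555, 463 and 488 RPM in WT and 173, 249.6 and 296 RPM in KO, a log2 change of -1.10 (limma adjusted p = 0.00465).

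Glucuronidation was represented by 1 entry, Ugt1a7c, on chromosome 1 from 88095062 to 88220002. It was at 1504, 1550 and 1527 RPM in WT and 1257, 1240 and 1174 RPM in KO, 80.1% of the WT mean, with a log2 change of -0.32 ± 0.09 (SE) and a limma adjusted p of 0.0144. The 9 annotated Ugt1a genes share their last exons, the entry overlaps 8 of them on its own strand, and 53.7% of its 50-base words occur in other genes, so the value cannot be assigned to 1 enzyme of the locus. Ugdh, which makes the glucuronic acid donor, was lower too, at 685, 651 and 738 RPM in WT and 349.8, 455 and 535 RPM in KO (log2 change -0.65, limma adjusted p = 0.0112). Nat8f5, an N-acetyltransferase of the Nat8 group, changed by -0.57 (limma adjusted p = 0.0173), and overlaps Nat8f6 on the same strand. With the length trend removed the log2 change of Ugt1a7c was -0.19 (limma adjusted p = 0.0805, the highest of its settings, the lowest being 0.00662), and those of Nat8f5, Gstm7, Gstm6, Gstm1 and Gsta3 were -0.99, -0.87, -1.0, -0.82 and 0.41. Nat8f5 lost its call without WT replicate 1 (-0.44, limma adjusted p = 0.0549), WT replicate 3 (-0.53, limma adjusted p = 0.0529) or KO replicate 2 (-0.53, limma adjusted p = 0.0563).

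Of the 5 peroxide and thioredoxin genes 2 rose and 3 fell. Among all listed genes 47.4% were lower. The counts were 370 of 555 at 100 RPM or more, 251 of 617 between 10 and 100 RPM and 52 of 248 below. Txnip, which binds and inhibits thioredoxin and limits glucose uptake, had the highest mean RPM of all 41 genes. It was at 1473, 1822 and 1568 RPM in WT and 2857, 2655 and 2409 RPM in KO, 163% of the WT mean, with a log2 change of 0.71 ± 0.13 (SE) and a limma adjusted p of 0.00386. Each KO library was above each WT library. Txnip overlaps Gm15441 on the other strand and shares 15.7% of its 50-base words with it. Txnrd1, the cytosolic thioredoxin reductase that keeps thioredoxin active, fell. It was at 707, 706 and 715 RPM in WT and 356, 466 and 598 RPM in KO, 66.7% of the WT mean, with a log2 change of -0.62 ± 0.19 (SE) and a limma adjusted p of 0.0182. The WT libraries agreed to a coefficient of variation of 0.733%, whereas the KO libraries spread by 25.5%. The medians over all listed genes were 8.34% in WT and 13.4% in KO. Without KO replicate 2 the limma adjusted p of Txnrd1 was 0.0503 (log2 change -0.62, the highest p of its settings, the lowest being 0.00441). The inhibitor and the reductase of thioredoxin therefore moved in opposite directions.

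Gpx2, the glutathione peroxidase of the gut epithelium, was at 357, 320.0 and 368 RPM in WT and 198, 227 and 252 RPM in KO, 64.8% of the WT mean, with a log2 change of -0.63 ± 0.13 (SE) and a limma adjusted p of 0.00546. With the length trend removed its log2 change was -1.02. Gpx3, the secreted form, rose from a low level: it was at 3.89, 3.83 and 4.83 RPM in WT and 10.3, 8.92 and 5.68 RPM in KO, with a log2 change of 0.94 ± 0.23 (SE) and a limma adjusted p of 0.00974. Its KO replicate 3 stood close to the highest WT library. Per kb of transcript Gpx2 remained far above Gpx3 in KO, at 211 against 5.21 RPM. Txndc11, a thioredoxin-domain protein of the endoplasmic reticulum, was at 84.6, 83.7 and 84.4 RPM in WT and 61.2, 63.2 and 69.2 RPM in KO, with a log2 change of -0.39 ± 0.10 (SE) and a limma adjusted p of 0.00976; it overlaps Snn on the other strand, and with the length trend removed its log2 change was -0.19 (limma adjusted p = 0.0597, the highest of its settings, the lowest being 0.00379). The summed level of the class was 2767 ± 157 RPM in WT and 3412 ± 74.7 RPM in KO, of which Txnip alone made up 1621 ± 181 and 2640 ± 225 RPM (SD, n = 3 each), so the sum of the other 4 genes was lower in KO.

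The promoter of Txnrd1 that starts at the middle one of 3 listed sites holds the same core on the other strand, 92 bases before the start, again in capitals. This window lies inside the gene's coordinates, 82833951 to 82897712, and the windows of the other listed sites do not hold the core.
Txnrd1, chr10:82858956-82859255, plus strand: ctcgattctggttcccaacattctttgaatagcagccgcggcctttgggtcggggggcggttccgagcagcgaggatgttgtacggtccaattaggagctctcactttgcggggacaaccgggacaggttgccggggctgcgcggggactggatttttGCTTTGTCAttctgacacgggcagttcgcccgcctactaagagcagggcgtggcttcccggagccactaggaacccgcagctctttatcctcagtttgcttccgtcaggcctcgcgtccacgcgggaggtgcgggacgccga
Windows were found for 38 of the 41 genes. The core TGACNNNGC, searched on both strands, was in a window of 8 of the 38 (Adh6a, Aldh9a1, Cyp2c66, Cyp4f14, Gsta3, Gstm7, Txndc11 and Txnrd1), 1 of 12 genes that rose and 7 of 26 that fell. By window it was in 15.4% of 52, beside 12.4% of the 32851 promoter windows of the genome of that length. The core of the xenobiotic response element, GCGTG, to which the Ahr receptor binds, was in 34.6% of the 52 windows, beside 32.4% of all. GTTAAT, the core of an HNF1 site, was in 11.5% beside 7.10%, and CAAAGTCCA, a site of HNF4A, in 0% beside 0.475%. No matches of different motifs overlapped in these windows. A match is only a description of the sequence.

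Other genes of the same pathways, listed by function, were mostly lower in KO where the table held them. Of 34 Nrf2 and glutathione genes 13 were in the table, 11 lower and 2 higher (median log2 change -0.59). Over all listed genes 47.4% were lower, with 370 of 555 at 100 RPM or more and 251 of 617 between 10 and 100 RPM. Hmox1 had a mean of 9.94 RPM, and under 10 RPM 52 of 248 listed genes were lower. All 13 had a limma adjusted p under 0.05, as 99.9% of all listed genes did. Slc7a11, the cystine importer that feeds glutathione synthesis, was at 22.2, 16.2 and 21.4 RPM in WT and 4.75, 6.18 and 12.1 RPM in KO, with a log2 change of -1.47 ± 0.34 (SE) and a limma adjusted p of 0.00801. Glo1, the glyoxalase that clears methylglyoxal with glutathione, was at 306, 322 and 353 RPM in WT and 155, 150.2 and 158 RPM in KO, with a log2 change of -1.08 ± 0.10 (SE) and a limma adjusted p of 0.000558. The quinone reductase Nqo1, the haem oxygenase Hmox1, the sulfiredoxin Srxn1 and the glutathione reductase Gsr changed by -0.74, -0.85, -0.56 and -0.52. The NADPH-producing enzymes Me1, Pgd and G6pdx changed by -0.69, -0.59 and -0.49, and Osgin1 and Ggt1 by -0.59 and -0.37. The 2 genes that were higher were Hagh, the next enzyme after Glo1 (0.39), and the glutaredoxin Glrx (0.36). Both rises were lost with the length trend removed, at 0.04 (limma adjusted p = 0.782) for Hagh and 0.05 (limma adjusted p = 0.620) for Glrx, while the fall of Glo1 was -0.70. Glrx also lost its call with libraries centred on the median gene and without WT replicate 1, 2 or 3 or KO replicate 2 (limma adjusted p from 0.0521 to 0.0747, log2 changes from 0.27 to 0.38), and G6pdx without WT replicate 1 or 3 (-0.48 and -0.49, limma adjusted p = 0.0597 and 0.0550), with a log2 change of -0.33 without KO replicate 1.

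Of 30 genes listed as xenobiotic receptors, electron donors and cofactor enzymes 7 were in the table, and all 7 were lower (median log2 change -0.65), beside 47.4% of all listed genes and 370 of 555 with a mean of at least 100 RPM and 251 of 617 between 10 and 100 RPM, the range of Ahr. All 7 had a limma adjusted p under 0.05, as 99.9% of all listed genes did. Cbr3, a carbonyl reductase, was at 154, 201 and 229 RPM in WT and 52.2, 44.9 and 56.3 RPM in KO, 26.2% of the WT mean, with a log2 change of -1.92 ± 0.17 (SE) and a limma adjusted p of 0.000524. Cbr1, a related carbonyl reductase, changed by -0.78 (limma adjusted p = 0.00196). Por, which passes electrons to all microsomal P450 enzymes, was at 612, 639 and 636 RPM in WT and 427, 456 and 450.2 RPM in KO, a log2 change of -0.50 (limma adjusted p = 0.00405). Cyb5b and the dioxin receptor Ahr changed by -0.35 (limma adjusted p = 0.0214) and -0.57 (limma adjusted p = 0.0165), beside Papss2 and Ugdh given above. The call of Cyb5b was lost without WT replicate 1 (-0.31, limma adjusted p = 0.0768), without KO replicate 2 (-0.36, limma adjusted p = 0.0597), with the block (limma adjusted p = 0.0540) and with the length trend removed (-0.15, limma adjusted p = 0.126). That of Ahr was lost without WT replicate 2 (-0.51, limma adjusted p = 0.0521), and its log2 change was -0.31 with the length trend removed. Of 14 efflux transporters only Abcc5 was listed, and it was higher, at 39.3, 35.2 and 27.8 RPM in WT and 61.5, 73.8 and 80.1 RPM in KO (log2 change 1.08, limma adjusted p = 0.00270). As for the enzymes, the table holds only genes already called between these libraries.

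**Figure D5:**
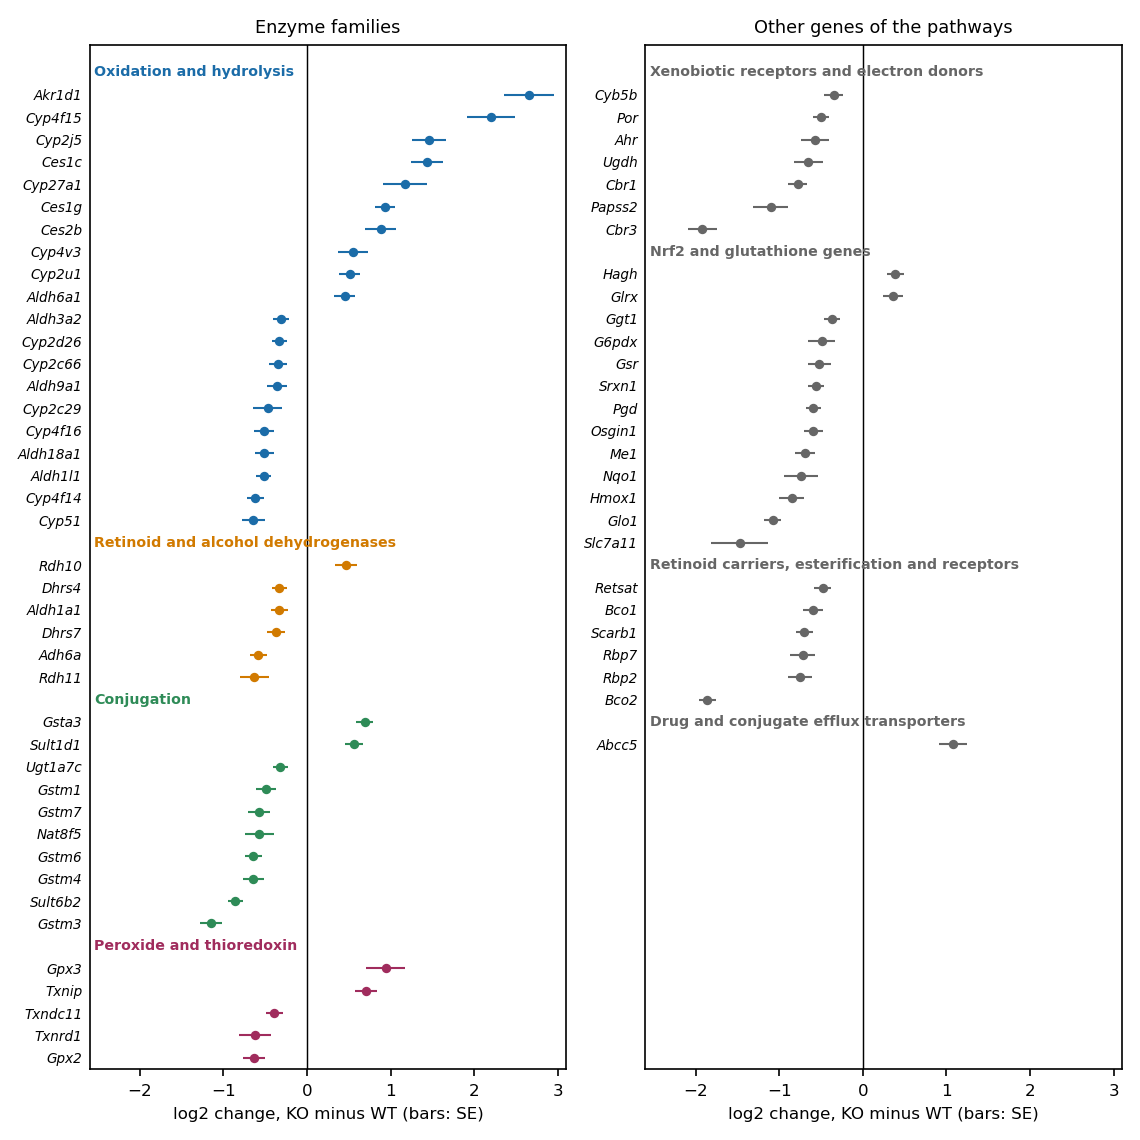
Log2 change in KO against WT (points) with its standard error (bars) for the 41 enzyme genes by class (left) and for the listed genes of the 4 other pathway lists (right). On the right 24 of 27 genes lie below 0, with Hagh, Glrx and Abcc5 above.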

How the data were processed

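RNA of 3 WT and 3 KO organoid libraries was sequenced as paired reads of 50 bp from directional poly(A) libraries. Per the labels and the study's methods, the authors trimmed reads with Trim Galore 0.4.2 and mapped them to GRCm38 with HISAT2 2.0.3. They counted uniquely mapped reads in SeqMonk 1.42.0 and tested the counts with DESeq2. The deposited table holds RPM per library for 1420 genes called in that test. Its p-value and FDR columns, of which the largest FDR is 0.0494, are the authors' own results and were used only to describe the selection.

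Values were steps of whole reads (100.0% within 0.05 reads), and the step gave the depth, with 3 reads at 0.192 to 0.242 RPM. These read numbers are inferred from the RPM, the recovery was not accepted as counts for a test, and no count test was run. Depth limits the genes under 10 RPM. Here log2(RPM + 0.1) was fitted with limma 3.58.1 (R 4.3.3, empirical Bayes, no filter, 2 groups) over all 1420 genes with Benjamini-Hochberg adjustment at 0.05, and the script was tested on simulated data. Since the table was selected on the same libraries, adjusted p-values are too small. Single genes were also given an exact permutation test, two-sided. Per-kb levels used the longest annotated protein-coding transcript in GENCODE M21, in which all 41 genes matched by symbol, and shared 50-base words were counted over all its transcripts. Promoter windows came from RefSeq (GRCm38.p6).

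Enzyme genes, classes and gene lists were chosen with earlier results of these data known. Described in full were, in each class, the 4 genes with the largest rises and the 4 with the largest falls among those with a mean of at least 1 RPM in either group, the 2 of highest mean, and all retinoid genes. The printed promoters were picked after their values were seen. Alternatives were a replicate block, centring, a pseudocount of 1, a filter at the 25th percentile, an intensity trend, removal of a length trend, other thresholds and leaving out each library.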

Additional observations from a re-analysis of the deposited data

How the results depend on the processing

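No enzyme gene changed direction under any of the alternatives. Of 485 alternative values 452 kept their side of the threshold and 33 did not, 27 of the 41 genes kept it in every setting run, and 14 lost it in at least 1. With a limma adjusted p under 0.01 in place of 0.05, 24 of the 41 genes passed, 13 of them lower. Leaving out genes under the 25th percentile of the mean left 8 of 15 genes that were higher, 1 gene with a log2 change of at least 1 (0 higher) in place of 6, and a median of -0.43. With the size set at 0.5, 28 genes passed (13 higher and 15 lower). A pseudocount of 1 left 3 of 5 rises of at least 1, and with the length trend removed 4 genes fell by at least 1. That setting tested 1396 genes and called 1137. Centring each library on the median listed gene moved all log2 changes by -0.09 and the median of the 41 genes to -0.44. With 1 library left out, 33 to 40 genes passed (13 to 15 higher and 19 to 25 lower), 5 to 8 changed by at least 1 (4 to 7 higher and 1 lower), the median ran from -0.37 to -0.33 and the log2 change of Smarcad1 from -2.20 to -2.09.

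Deviations of same-numbered WT and KO libraries from their group means correlated at -0.08, 0.09 and 0.06. These values cover only the listed genes and were not set beside those of differently numbered libraries. They cannot show whether same-numbered libraries were paired by litter or batch. With the replicate number as a block 39 of the 41 genes and 1351 of 1420 genes passed. Genes with few reads, such as Akr1d1 (SE 0.30), are less precise. For genes that share exons, such as Ugt1a7c, the limit is which gene the reads belong to, as its SE was 0.09.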
